A study of Rattus norvegicus with 6 samples.

Results

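The genes described here encode the machinery that brings new secretory proteins into the endoplasmic reticulum (ER), attaches N-glycans to them and loads them into COPII vesicles. The list held 46 gene names, and 43 of them matched a gene name in the deposited table of 33300 rows. The names without a row were Srprb, Sec61g and Tram2, which are not analysed here. The libraries were made from rat tendon stem/progenitor cells after 7 days of culture. RNA sequencing gave each gene an FPKM value, a read density per kilobase of gene and per unit of sequencing depth. The groups were NAC, 3 libraries of cells grown in F12 medium with 500 uM N-acetyl-L-cysteine, a thiol antioxidant and cysteine source, and Control, 3 libraries of cells in F12 medium alone. The labels also give both groups the terms mesenchymal stem cells and tenogenic differentiation, and name no donor, strain or batch. Whether the libraries within a group are separate cultures is not stated, and the p-values therefore cover just the variation among these samples, which may be technical.

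Proteins bound for secretion are recognised by the signal recognition particle (SRP) as they leave the ribosome and are threaded through the Sec61 channel into the ER. There signal peptidase removes the signal peptide, and the oligosaccharyltransferase (OST) transfers a sugar chain to asparagine residues. Folded cargo then leaves in vesicles coated with COPII, and escaped ER proteins return through KDEL receptors. Tendon cells secrete collagen in bulk, and procollagen depends on this route.

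Reads recovered from the FPKM values numbered 13624097 to 14941949 per NAC library and 12487215 to 14079556 per Control library. All 7 tendon markers checked (Col1a1, Col3a1, Dcn, Mkx, Scx, Tnc and Tnmd) reached a mean of 1 FPKM, and their summed level was 13201 to 14001 FPKM in NAC and 8808 to 9042 FPKM in Control. That sum is mostly Col1a1 (5453 ± 253 FPKM in NAC and 2731 ± 124 FPKM in Control), Dcn and Tnc. The tendon transcription factors had lower means in NAC. Mkx stood at 3.90 ± 1.07 FPKM in NAC and 5.28 ± 0.394 FPKM in Control, and Scx at 11.6 ± 0.700 FPKM in NAC and 12.5 ± 1.30 FPKM in Control. Tnmd had the higher mean in NAC, with 2.55 ± 0.537 FPKM against 1.41 ± 0.369 FPKM in Control (SD, n = 3 each). Neither the factors nor Tnmd were called as deposited. Rescaled to the recovered reads of each library, Mkx was called lower (log2 fold change -0.52, limma adjusted p = 0.0481). Scx and Tnmd were not called on that scale. Of the 20 markers of leukocytes, endothelium, muscle, glia, blood and fat with a row, 2 reached a mean of 1 FPKM, Cd68 and Des. Ptprc, Cdh5 and Sox10 were listed at 0 in every library. The summed level of the leukocyte markers was 3.77 to 5.18 FPKM in NAC and 4.17 to 7.203 FPKM in Control. In bulk samples such as these, fewer cells of a type and less RNA per cell cannot be told apart.

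All 43 genes passed the filter of a mean of at least 1 FPKM. They averaged between 1.28 FPKM, for Srp14, and 274 FPKM, for Rpn2, with a median of 60.1 FPKM. Of these genes 10 lay at 100 FPKM or more, 31 between 10 and 100, and 2 below 10. The median coefficient of variation between libraries was 3.47% in NAC and 3.01% in Control. Between 12 and 17 reads per library lay behind the value of Srp14, and at least 247 reads behind every other value, figures that bear on counting error only.

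A limited set of these genes rose with NAC, led by one subunit each of the OST and of signal peptidase and by receptors of ER exit and retrieval. As deposited, 11 of 43 rose and none fell at a limma adjusted p under 0.05 (25.6% higher), where 6.08% of all 12733 tested genes were called higher and 2.72% lower. An unadjusted p under 0.05 was reached by 16 members that were higher (all tested genes, 14.4%) and 2 that were lower (all tested genes, 11.9%), and limma voom on the recovered reads called 12 higher (all tested genes, 8.13%) and none lower (all tested genes, 4.15%). The median log2 fold change of the members was 0.093, against -0.0063 over all tested genes. The values of the NAC libraries all lay above those of the Control libraries for 20 members (all tested genes, 16.7%) and all below for 4 (all tested genes, 15.9%). The count of 11 was 4 without NAC 1, 3 without NAC 2, 7 without NAC 3, 5 without Control 1, 7 without Control 2 and 5 without Control 3. Over all tested genes the 774 called higher became 294 without NAC 1, 264 without NAC 2 and 456 without NAC 3. They became 379 without Control 1 and 362 without Control 3, and rose in number without Control 2.

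The count depended on the scale. The deposited values hold the median gene near no change. When they were rescaled to library totals, that is to the recovered reads of each library, the log2 fold change had a median of -0.16 over all tested genes and of -0.080 over the members. On that scale 4 members were called higher (all tested genes, 3.67%) and 14 lower (all tested genes, 29.2%), which is 9.30% and 32.6% of the members, the share of lower calls being near that of all genes. The NAC libraries all lay above Control for 6 members (all tested genes, 5.73%) and all below for 21 (all tested genes, 44.6%). The 4 higher ones were Rpn2, Spcs3, Lman1 and Kdelr2, which had also risen as deposited, while 3.46% of all tested genes were called higher on both scales. No member was higher on one scale and lower on the other, and 18 were called on neither. Which scale follows the RNA content of the cells was not tested.

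**Figure D1:**
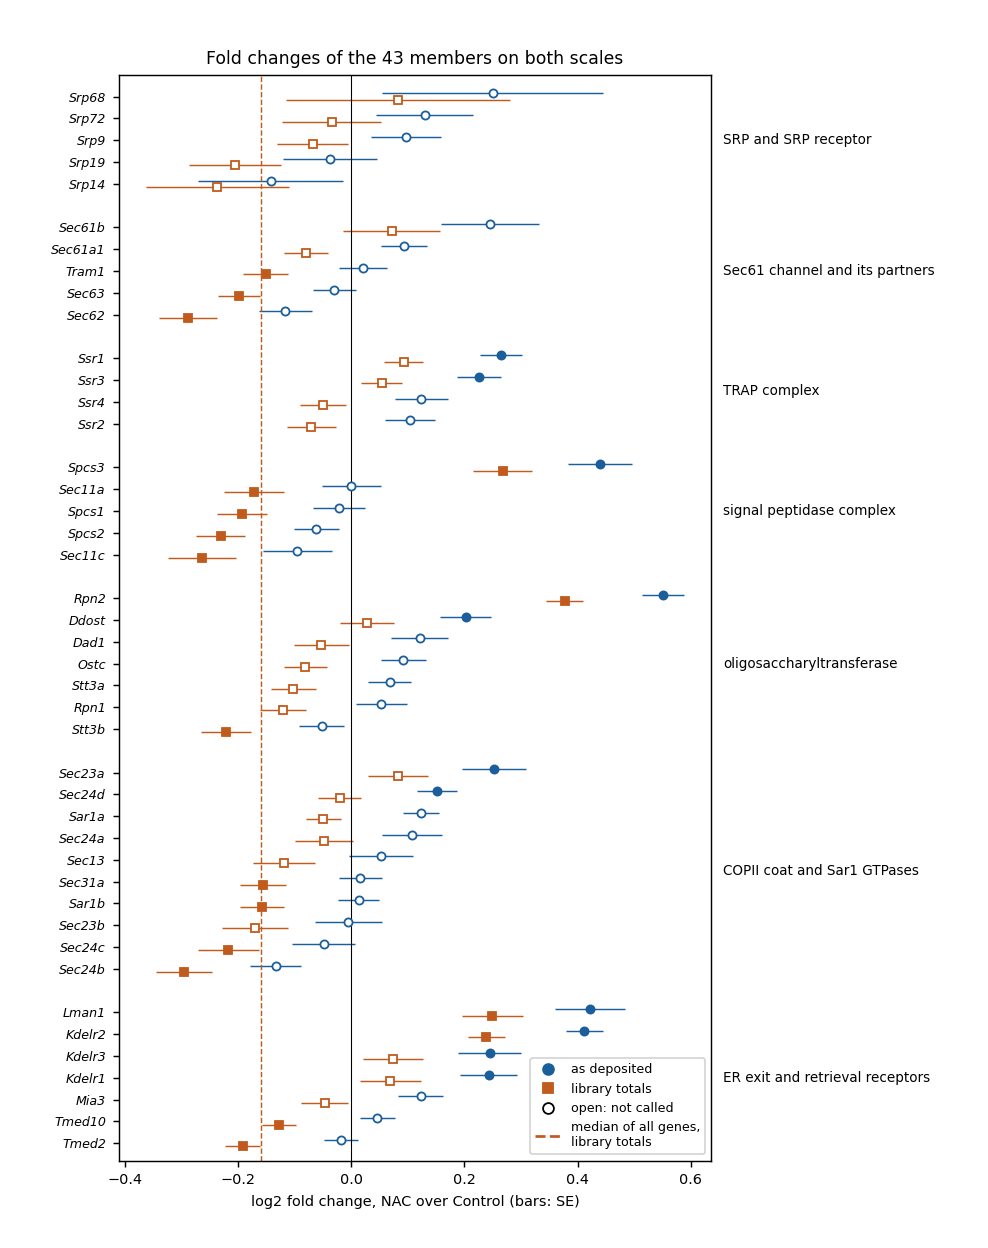
Log2 fold change of each of the 43 genes, NAC over Control, by role, with SE bars. Circles are values as deposited and squares values scaled to library totals, filled where limma called the gene, and the dashed line is the median of all tested genes with library totals (-0.16). Rpn2, Spcs3, Lman1 and Kdelr2 are filled on the positive side on both scales.

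Because the regulators XBP1 and ATF6 of the unfolded protein response act through short promoter elements, the RefSeq promoter windows (GRCr8, 250 bases before to 50 after the start) of 40 of the 46 genes were searched on both strands. Sec61a1, Tram1, Sec24c, Sec24d, Sar1a and Kdelr2 had no window in the table. The ER stress element ERSE, CCAAT and CCACG with 9 bases between them, and ERSE-II, ATTGG and CCACG with 1 base between them, were found in 0 of the 40, and in 0.0765% and 0.0546% of all 27457 windows. The unfolded protein response element UPRE, TGACGTGG, was found in 3 of the 40 and in 0.637% of all windows. Of the 3 genes, Sec23a and Kdelr3 rose as deposited and Srp19 was not called. The cAMP response element CRE, TGACGTCA, was in 0 of the 40 and 1.91% of all windows, and the pentamer CCACG, which is part of ERSE, ERSE-II and the reverse complement of UPRE, in 22 of the 40 and 32.5% of all windows. It was in 6 of the 9 windows of genes that rose, and the other 16 matching windows were of genes not called or without a row. The share over all 40 windows was 55%. The stretches with a UPRE match are shown because they set 2 risen genes beside 1 that was not called, and that of Rpn2 because its fold change was the largest of the 43. Each is written 5′ to 3′ on the strand of the gene, with the matched letters in capitals.
Sec23a (chr6:82440968-82441015, minus strand, match at -91 to -84 from the start): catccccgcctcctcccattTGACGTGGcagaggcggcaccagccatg
Kdelr3 (chr7:112959511-112959558, plus strand, match on the opposite strand at -101 to -94): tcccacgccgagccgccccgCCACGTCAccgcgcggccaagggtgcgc
Srp19 (chr18:26205713-26205760, plus strand, match on the opposite strand at -155 to -148): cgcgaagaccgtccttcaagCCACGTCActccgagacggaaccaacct
Rpn2 (chr3:166361838-166361901, plus strand, CCACG at -190 to -186 and on the opposite strand at -209 to -205): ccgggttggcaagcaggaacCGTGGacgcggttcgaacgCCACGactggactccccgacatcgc
A match is a description of letters and was not tested for binding.

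None of the 5 SRP genes with a row was called on either scale by limma. As deposited, none was called by voom or reached an unadjusted p under 0.05. With library totals Srp19 had an unadjusted limma p of 0.0398 (-0.20, limma adjusted p = 0.0923). SRP is the ribonucleoprotein that brings ribosomes to the ER membrane. Srp68, a protein of its core, had 28.5, 18.9 and 32.7 FPKM in NAC 1, 2 and 3, against 24.5, 22.1 and 19.1 FPKM in Control 1, 2 and 3. NAC 1 and NAC 3 lay above every Control library and NAC 2 below all of them, the widest spread among the 43 genes (coefficient of variation up to 26.5%). Srp19, which helps assemble the particle, had 24.1, 24.01 and 26.7 FPKM in NAC, against 26.1, 28.1 and 22.9 FPKM in Control, so the groups overlapped. The remaining genes Srp9, Srp14 and Srp72 had log2 fold changes between -0.14 and 0.13.

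The Sec61 channel and its partners held 0 of 5 genes called as deposited by limma or by voom, and 1 higher and 1 lower at an unadjusted p under 0.05. Sec61b, the β subunit of the channel, had 135, 146 and 161 FPKM in the NAC libraries, against 112, 135 and 125 FPKM in the Control libraries. Its log2 fold change of 0.25 ± 0.0859 (SE) had a limma adjusted p of 0.130, and the groups overlapped by NAC 1 and Control 2. Sec61a1, the pore-forming subunit, had 94.8, 98.95 and 95.2 FPKM in NAC and 86.6, 93.1 and 91.1 FPKM in Control, without overlap but not called (0.093, limma adjusted p = 0.206). A row named LOC100361694 and described in the table as Sec61 gamma subunit-like, picked after its values were seen, stood at 115 ± 2.55 FPKM in NAC and 125 ± 6.86 FPKM in Control (SD, n = 3 each). Every NAC library of that row lay below Control, and it was not called as deposited (limma adjusted p = 0.176). With library totals it was called lower (-0.29, limma adjusted p = 0.00980).

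Sec62 and Sec63, which serve the import of short and post-translationally imported proteins, and Tram1, which aids insertion of some signal sequences, were called lower with library totals and on that scale only. Sec62 had 50.2, 52.5 and 50.6 FPKM in NAC, against 56.5, 52.5 and 57.5 FPKM in Control, with NAC 2 and Control 2 nearly equal. Its log2 fold change was -0.12 as deposited (limma adjusted p = 0.171) and -0.29 with library totals (limma adjusted p = 0.0101). Sec63 had 25.5, 25.4 and 24.9 FPKM in NAC and 25.5, 26.3 and 25.6 FPKM in Control, a difference under 1 FPKM between the means. Tram1 had 53.2, 56.9 and 53.3 FPKM in NAC and 53.98, 54.7 and 52.3 FPKM in Control, with the groups interleaved. With library totals the log2 fold changes of Sec63 and Tram1 were -0.20 and -0.15, near the median of all genes on that scale.

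In the TRAP complex, which sits beside the channel and helps translocation, the subunits Ssr1 and Ssr3 rose and Ssr2 and Ssr4 were not called. Ssr1 had 65.6, 65.7 and 65.8 FPKM in NAC, against 54.3, 56.3 and 53.04 FPKM in Control. The NAC libraries were almost equal and all lay above Control, and the log2 fold change was 0.26 ± 0.0368 (SE, limma adjusted p = 0.00970), a call lost without NAC 2 (0.26). Ssr3 had 74.2, 73.6 and 69.6 FPKM in NAC, against 61.6, 62.8 and 60.9 FPKM in Control. The groups did not overlap, and the log2 fold change was 0.23 ± 0.0395 (SE, limma adjusted p = 0.0199), lost without NAC 1, NAC 2, Control 1 or Control 3 (0.21 to 0.22). On the scale of library totals neither was called (0.093 for Ssr1 and 0.054 for Ssr3).

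Ssr4, the most abundant TRAP gene, had 177, 180.2 and 168 FPKM in NAC, against 159, 169 and 154 FPKM in Control. Ssr2 had 133, 139 and 134 FPKM in NAC, against 132, 126 and 120.1 FPKM in Control. For Ssr4 the lowest NAC and the highest Control library overlapped slightly, and for Ssr2 they were separated by under 1 FPKM. Their log2 fold changes were 0.12 and 0.10 (limma adjusted p = 0.156 and 0.196).

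Signal peptidase showed one subunit apart from the rest. Spcs3, an accessory subunit with its bulk in the ER lumen (ENSRNOG00000038933, chromosome 16, 40050734 to 40058822), had 75.5, 75.9 and 68.4 FPKM in NAC, against 55.6, 54.8 and 50.8 FPKM in Control. Every NAC library lay above every Control library. The log2 fold change was 0.44 ± 0.0569 (SE, limma adjusted p = 0.00752) and 0.27 with library totals (limma adjusted p = 0.0122). The call held in each of the other settings run, with limma adjusted p of at most 0.0428.

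The other signal peptidase genes were not called as deposited and were called lower with library totals. Sec11a, a catalytic subunit, had 82.9, 77.3 and 86.3 FPKM in NAC and 81.2, 85.6 and 79.6 FPKM in Control, with no shift between the groups. Sec11c, the alternative catalytic subunit, had 26.2, 26.6 and 28.2 FPKM in NAC and 26.8, 30.7 and 29.3 FPKM in Control. Sec11c overlapped between groups by NAC 3 and Control 1. Spcs1, a small membrane subunit, had 65.6, 69.98 and 63.97 FPKM in NAC and 69.6, 66.8 and 66.1 FPKM in Control. Spcs2, another membrane subunit, had 29.2, 28.8 and 30.4 FPKM in NAC and 30.8, 31.04 and 30.6 FPKM in Control, the NAC libraries lying just below. With library totals the 4 log2 fold changes ran from -0.17, for Sec11a, to -0.26, for Sec11c.

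In the OST, Rpn2 and Ddost rose. Rpn2, which encodes ribophorin II (ENSRNOG00000007492, chromosome 3, 153398130 to 153445632), had 329.6, 333 and 314 FPKM in NAC, against 221, 227 and 217 FPKM in Control. The groups were far apart: the lowest NAC library exceeded the highest Control library by more than the range within either group. The log2 fold change was 0.55 ± 0.0374 (SE, limma adjusted p = 6.36e-04) and 0.38 with library totals (limma adjusted p = 0.00241), and it was called in every setting run. Ddost, a non-catalytic subunit of the complex, had 237, 221 and 224 FPKM in NAC, against 207, 193 and 193 FPKM in Control. No values overlapped, and the log2 fold change was 0.20 ± 0.0457 (SE, limma adjusted p = 0.0428). That call did not survive leaving out any single library (0.17 to 0.24) or rescaling to library totals (0.028).

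The catalytic subunits of the OST did not follow Rpn2. Stt3a, which glycosylates chains as they pass the channel, stood at 40.6 ± 1.07 FPKM in NAC and 38.7 ± 0.313 FPKM in Control (SD, n = 3 each; limma adjusted p = 0.301). Stt3b, which also acts on sites that were skipped, had 30.4, 29.2 and 30.9 FPKM in NAC, against 31.7, 31.1 and 31.2 FPKM in Control. All NAC values of Stt3b lay below Control, and it was called lower with library totals only (-0.22, limma adjusted p = 0.0127). Rpn1, or ribophorin I, stood at 199 ± 9.19 FPKM in NAC and 192 ± 4.85 FPKM in Control (SD, n = 3 each; limma adjusted p = 0.492). Dad1 and Ostc had log2 fold changes of 0.12 and 0.092 and were not called on either scale.

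**Figure D2:**
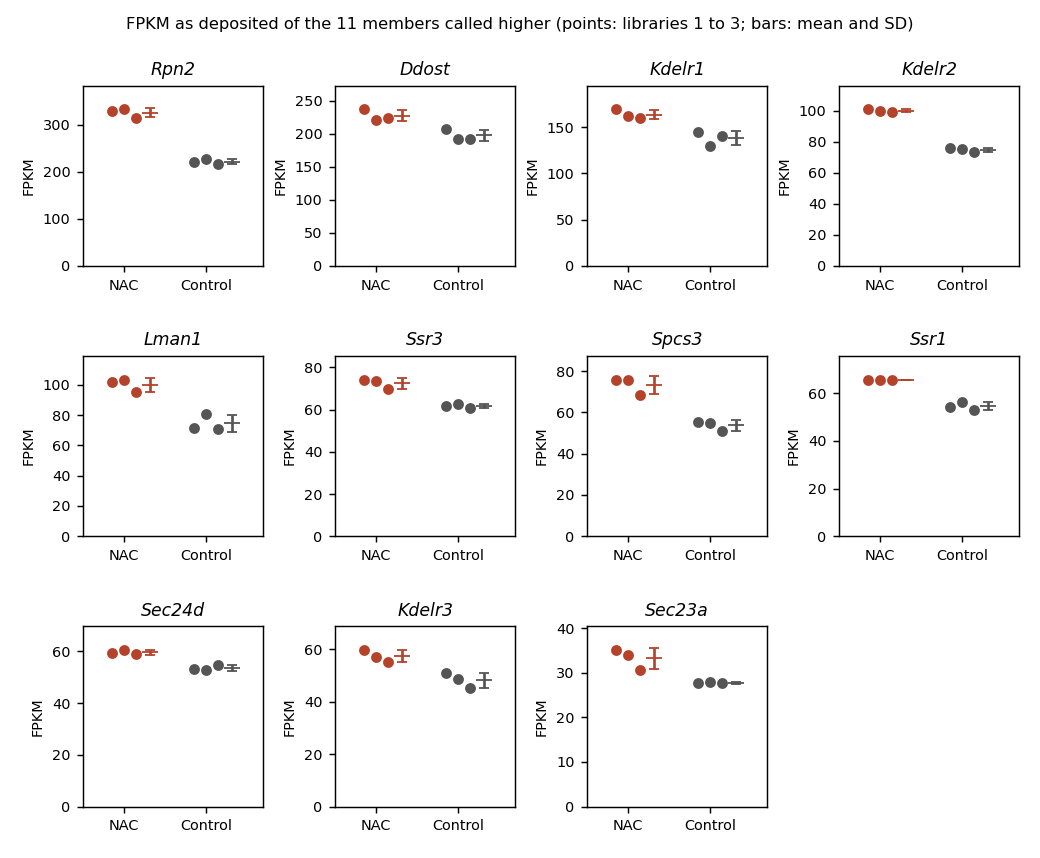
FPKM as deposited of the 11 genes that rose, with 1 point per library in the order 1 to 3 and a bar for the mean and SD of each group. In each panel the 3 NAC points lie above the 3 Control points, as between the lowest NAC and highest Control library of Ddost (221 against 207 FPKM) and of Rpn2 (314 against 227 FPKM).

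Among the 10 genes of the COPII coat, which buds vesicles from the ER, Sec23a and Sec24d rose. Sec23a, the GTPase-activating subunit of the inner coat, had 35.2, 34.03 and 30.6 FPKM in NAC, against 27.6, 27.9 and 27.7 FPKM in Control. The NAC libraries were more spread than the Control libraries but all above them, and the log2 difference was 0.25 ± 0.0568 (SE; adjusted p by limma, 0.0426). The call was lost without NAC 1, NAC 2, Control 1, Control 2 or Control 3 (0.21 to 0.26) and with library totals (0.083). Sec24d, a cargo-binding subunit whose loss impairs collagen secretion in zebrafish, had 59.2, 60.6 and 59.1 FPKM in NAC, against 53.4, 52.7 and 54.7 FPKM in Control. The groups did not overlap, but the difference was small (0.15 ± 0.0351, SE; limma adjusted p = 0.0455), was lost when any 1 library was left out (0.14 to 0.17) and was -0.020 with library totals.

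Sar1a, a GTPase that starts coat assembly, had 97.6, 97.1 and 96.03 FPKM in NAC, against 87.9, 90.3 and 88.4 FPKM in Control. Its groups were separate, and it missed the threshold as deposited (0.12 ± 0.0320, SE; limma adjusted p = 0.0618, range over the other settings 0.0433 to 0.286). Its paralog Sar1b had 42.1, 43.1 and 43.9 FPKM in NAC and 42.002, 42.9 and 42.9 FPKM in Control, with no separation. Sec31a, of the outer coat, had 71.1, 70.3 and 67.9 FPKM in NAC and 68.6, 67.4 and 70.8 FPKM in Control, likewise mixed.

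Sec24b and Sec24c are further cargo-binding subunits. Sec24b had 13.8, 13.7 and 13.8 FPKM in NAC, against 15.3, 14.7 and 15.6 FPKM in Control, with all NAC values below Control but no call as deposited (-0.13, limma adjusted p = 0.12). Sec24c had 34.8, 32.3 and 30.2 FPKM in NAC and 33.7, 33.4 and 33.5 FPKM in Control, with the Control values inside the NAC range. With library totals Sec24b, Sec24c, Sar1b and Sec31a were called lower, at -0.30, -0.22, -0.16 and -0.16. Sec13, Sec23b and Sec24a had log2 fold changes of 0.053, -0.0047 and 0.11 and were called on neither scale.

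Receptors of ER exit and retrieval held 4 of the 11 genes that rose, out of 7 (57.1%, all tested genes 6.08%). With library totals 2 of the 7 were called higher and 2 lower (all tested genes, 3.67% and 29.2%). Kdelr1, Kdelr2 and Kdelr3 encode the receptors that bind the KDEL signal of ER chaperones and return them from the Golgi. Kdelr2 (ENSRNOG00000001083, chromosome 12, 13192453 to 13210758) had 101, 100.1 and 99.003 FPKM in NAC, against 76.1, 75.3 and 73.5 FPKM in Control. Both groups were tight and far apart, and the log2 difference was 0.41 ± 0.0329 (SE; adjusted p by limma, 0.00126) and 0.24 with library totals (limma adjusted p = 0.00575), called in every setting run. Kdelr1 had 169, 162 and 159.7 FPKM in NAC, against 145, 129.7 and 140.2 FPKM in Control. Kdelr3 had 59.8, 57.2 and 55.1 FPKM in NAC, against 50.8, 48.9 and 45.2 FPKM in Control. Neither gene overlapped between groups, and the log2 fold changes were 0.24 ± 0.0502 and 0.25 ± 0.0558 (SE, limma adjusted p = 0.0332 and 0.0434). The Kdelr1 call was lost without any 1 library other than Control 2 (0.22 to 0.28) and that of Kdelr3 without any 1 library (0.20 to 0.28). With library totals neither was called (0.069 and 0.074).

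Lman1, also called ERGIC-53, is a lectin that carries glycoproteins such as clotting factors out of the ER (ENSRNOG00000024470, chromosome 18, 61685117 to 61707317). It had 102, 104 and 95.01 FPKM in NAC, against 71.5, 80.9 and 71.1 FPKM in Control. Control 2 was the highest Control library and still lay under each NAC library. The log2 fold change was 0.42 ± 0.0620 (SE, limma adjusted p = 0.0116), and the call was lost without NAC 1 or NAC 2 (0.40 to 0.41) but kept with library totals (0.25, limma adjusted p = 0.0166).

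The p24 cargo receptors Tmed2 and Tmed10 were abundant and nearly level. Tmed10 had 256, 263 and 259 FPKM in NAC, against 250.4, 255 and 249 FPKM in Control. Tmed2 had 181, 179.8 and 178 FPKM in NAC, against 183, 183 and 180.3 FPKM in Control. Tmed10 was separated by under 2 FPKM and Tmed2 overlapped, and both were called lower with library totals (-0.13 and -0.19, limma adjusted p = 0.0212 and 0.00780). Mia3, or TANGO1, which packages procollagen into COPII carriers, stood at 36.9 ± 0.348 FPKM in NAC and 33.8 ± 1.07 FPKM in Control (SD, n = 3 each). Its groups did not overlap, and it was not called (0.12, limma adjusted p = 0.107).

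The share of all reads of a library divides by the recovered reads of that library, as the scale of library totals does. It therefore cannot decide between that scale and the deposited one. The 43 genes took 0.696, 0.689 and 0.687% of the reads in NAC, against 0.705, 0.695 and 0.697% in Control. The groups overlapped. The OST genes took 0.216 ± 0.00314% in NAC and 0.207 ± 0.00296% in Control, all NAC libraries being higher. Rpn2 carried this difference: the other 6 OST genes took 0.143, 0.138 and 0.140% in NAC, against 0.151, 0.146 and 0.147% in Control, all NAC libraries being lower. Genes of the COPII coat took 0.138 ± 0.00251% in NAC and 0.148 ± 0.00277% in Control, and those of the Sec61 channel 0.0736 ± 0.00150% in NAC and 0.0807 ± 0.00114% in Control (SD, n = 3 each), all NAC libraries being lower in both. The SRP, TRAP, signal peptidase and ER exit groups overlapped. On this scale every NAC library lay below Control for 44.6% of all tested genes and above for 5.73%. Lower shares are therefore not particular to these roles. Shares of reads weigh long genes more than short ones, and no test was made on these sums.

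**Figure D3:**
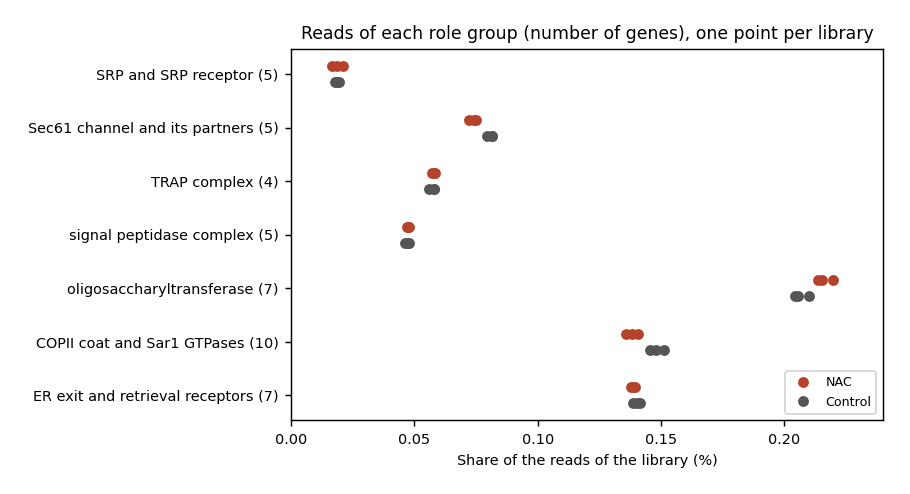
Share of the reads of each library (%, linear axis from 0) taken by the genes of each role, with 1 point per library, NAC above Control. The OST points of NAC lie right of Control (0.216 against 0.207% on average, but 0.140 against 0.148% without Rpn2), those of the COPII coat and the Sec61 channel lie left, and the other groups overlap.

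Ratios of paralogs within a library do not depend on the scaling between libraries. In 7 of 8 pairs the 3 NAC ratios lay all on one side of the 3 Control ratios, as did 30.2% of the ratios of any 2 tested genes above 0 in every library. The pairs are not independent, since Kdelr2 is in 2 of them. Further pairings within the Sec24 and Kdelr families were not among the 8, so the count holds for the chosen pairs alone. Of those left out, Kdelr3 to Kdelr1, Sec24d to Sec24a, Sec24c to Sec24b and Sec24a to Sec24c overlapped between groups. Sec24d to Sec24b did not overlap. Sec23b to Sec23a had ratios of 0.524, 0.544 and 0.546 in NAC, against 0.636, 0.625 and 0.681 in Control, so the share of Sec23a was larger with NAC. Sec24d to Sec24c had ratios of 1.702, 1.87 and 1.95 in NAC, against 1.58, 1.58 and 1.63 in Control. Sec24b to Sec24a had ratios of 1.54, 1.45 and 1.54 in NAC, against 1.82, 1.71 and 1.91 in Control. Each of these gives the NAC libraries a different mix of the inner coat subunits, by -0.27, 0.20 and -0.26 on the log2 scale.

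Kdelr2 gained on both of its paralogs. The log2 ratio of Kdelr2 to Kdelr1 differed by 0.17 between NAC and Control, and that of Kdelr3 to Kdelr2 by -0.17. Sar1b to Sar1a and Stt3b to Stt3a differed by -0.11 and -0.12, and Sec11c to Sec11a, the pair that overlapped, by -0.098. In an exact two-sided permutation test of 3 against 3 libraries the 7 separated pairs had p = 0.1, the smallest this design allows, and adjusted p = 0.114 over the 8 pairs, so none could pass the threshold.

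Ratios between partners were chosen after the values were seen. They restate the fold changes of the 2 genes and are given without a test. Rpn2 to Rpn1 stood at 1.61, 1.63 and 1.67 in NAC, against 1.13, 1.18 and 1.17 in Control. Spcs3 to Spcs2 stood at 2.58, 2.64 and 2.25 in NAC, against 1.80, 1.77 and 1.66 in Control. Kdelr2 to Tmed2, both of ER-Golgi traffic, stood at 0.557, 0.557 and 0.555 in NAC, against 0.415, 0.412 and 0.408 in Control. In each of these cases the 2 groups were separate and the spread within a group was small beside the gap. Of the ratios of any 2 tested genes above 0 in every library, 30.2% were separate. Ssr3 to Ssr2, a further chosen ratio, was separated narrowly, with 0.518 in NAC 3 and 0.507 in Control 3.

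**Figure D4:**
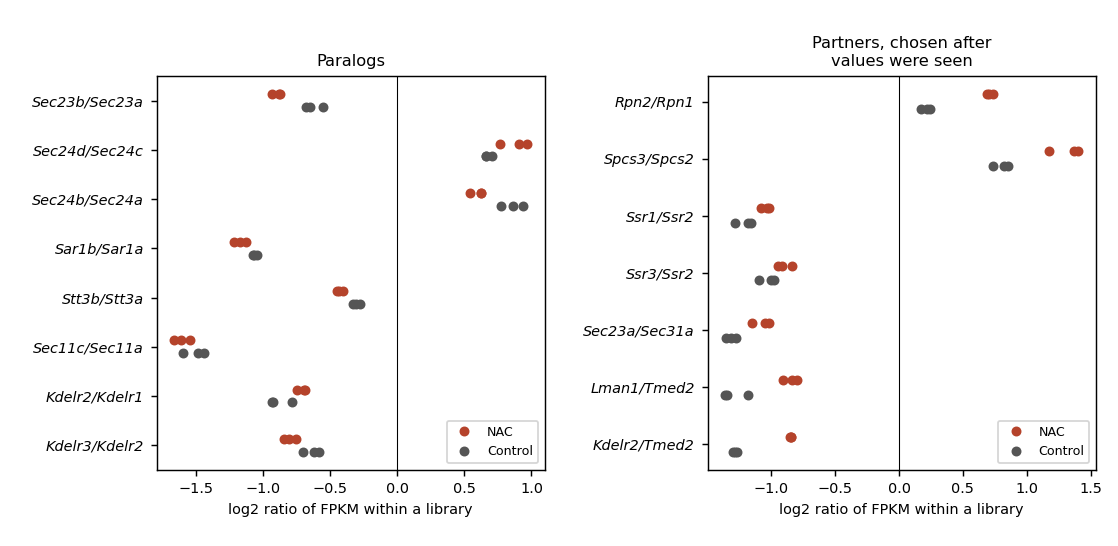
Log2 ratio of FPKM of 2 genes within each library, 1 point per library, NAC above Control in each row. The left panel shows the 8 paralog pairs, of which Sec11c/Sec11a alone overlaps, and the right panel ratios between partners that were chosen after the values were seen, with the widest gaps for Rpn2/Rpn1 (0.50) and Spcs3/Spcs2 (0.51).

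Neighbouring steps of the pathway were read from 7 further lists of 110 genes, of which 107 passed the filter. As deposited 8 rose and 3 fell, or 7.48% and 2.80%, close to the 6.08% and 2.72% of all tested genes. With library totals 3 were higher and 32 lower, or 2.80% and 29.9%, close to the 3.67% and 29.2% of all tested genes. Leaving out 1 library brought these deposited counts to between 2 and 7 higher and between 0 and 3 lower: 3 and 0 without NAC 1, 3 and 0 without NAC 2, 5 and 0 without NAC 3, 2 and 0 without Control 1, 7 and 3 without Control 2, and 3 and 0 without Control 3. The median log2 fold change of the 107 was 0.051.

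Among the called genes of these lists, the largest log2 fold changes as deposited were those of Uggt1 and Man2a1 in N-glycan trimming and quality control. In that list 3 of 14 rose and none fell (21.4% higher, all tested genes 6.08%). Limma voom called 6 higher and 0 lower (all tested genes, 8.13% and 4.15%). An unadjusted p under 0.05 was reached by 8 higher and 0 lower (all tested genes, 14.4% and 11.9%). With library totals 2 were called higher and 1 lower (14.3% and 7.14%, all tested genes 3.67% and 29.2%). Uggt1, which senses misfolded glycoproteins and returns them to the calnexin cycle, had 26.6, 25.5 and 26.4 FPKM in NAC, against 19.3, 18.5 and 19.9 FPKM in Control (0.42 ± 0.0453, SE; limma adjusted p = 0.00365). Man2a1, a Golgi mannosidase of complex glycan synthesis, had 26.9, 27.5 and 25.99 FPKM in NAC, against 20.1, 20.3 and 19.3 FPKM in Control (0.41 ± 0.0445, SE; limma adjusted p = 0.00365). Both were also called higher with library totals (0.26 and 0.24), and both in every setting run. Prkcsh, the β subunit of glucosidase II, stood at 161 ± 4.89 FPKM in NAC and 141 ± 2.37 FPKM in Control (SD, n = 3 each; 0.20, limma adjusted p = 0.0243), a call lost without any 1 library other than Control 2 and with library totals (0.024).

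The assembly of the dolichol-linked sugar that OST transfers showed no gene of 23 called as deposited by limma or by voom, and 1 lower at an unadjusted p under 0.05. With library totals 5 of the 23 were called lower (21.7%, all tested genes 29.2%). Dpagt1, which starts that assembly, stood at 32.6 ± 1.43 FPKM in NAC and 35.03 ± 1.90 FPKM in Control, and Srd5a3, which makes dolichol, at 26.6 ± 1.26 FPKM in NAC and 25.3 ± 0.756 FPKM in Control (SD, n = 3 each; limma adjusted p = 0.296 and 0.433). Dpagt1 was among the genes called lower with library totals (-0.27, limma adjusted p = 0.0172). None of 5 other OST subunits was called as deposited, while voom called 1 higher and 1 lower, and an unadjusted p under 0.05 was reached by 2 higher and 1 lower. Tmem258 stood at 312 ± 21.3 FPKM in NAC and 290.2 ± 23.2 FPKM in Control (limma adjusted p = 0.401). Ost4 stood at 216 ± 6.66 FPKM in NAC and 195 ± 2.73 FPKM in Control (SD, n = 3 each; limma adjusted p = 0.0514) and was the one called higher by voom (adjusted p = 0.0482), with -0.025 with library totals. Tusc3, picked after its values were seen, had 15.5, 14.7 and 16.7 FPKM in NAC, against 19.2, 20.9 and 17.6 FPKM in Control. It encodes a thiol-disulfide oxidoreductase subunit of the OST form with Stt3b. All NAC values lay below Control (-0.28, limma adjusted p = 0.0714), and it was called lower by voom (adjusted p = 0.0428) and with library totals (-0.44, limma adjusted p = 0.00881).

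Of 25 genes of other ER exit factors with a row 22 passed the filter, of which 3 rose and none fell (13.6% higher, all tested genes 6.08%). Limma voom called 6 higher and 0 lower (all tested genes, 8.13% and 4.15%). An unadjusted p under 0.05 was reached by 8 higher and 1 lower (all tested genes, 14.4% and 11.9%). With library totals 1 was called higher and 8 lower (4.55% and 36.4%, all tested genes 3.67% and 29.2%). The 3 that rose as deposited were of the p24 family. Further genes of that family, Tmed1, Tmed5 and Tmed9 of this list and Tmed2 and Tmed10 of the members, were not called higher. Tmed4 stood at 41.5 ± 1.87 FPKM in NAC and 31.95 ± 2.82 FPKM in Control, Tmed3 at 152 ± 8.69 FPKM in NAC and 125 ± 5.21 FPKM in Control, and Tmed7 at 46.8 ± 0.651 FPKM in NAC and 41.97 ± 0.835 FPKM in Control (SD, n = 3 each; limma adjusted p = 0.0245, 0.0293 and 0.0469). Tmed4 kept its call with library totals (0.20) and Tmed3 and Tmed7 did not (0.10 and -0.016). Of the COPI coat, which runs the return route, 1 of 12 rose, the ζ2 subunit Copz2 (83.8 ± 4.92 FPKM in NAC and 67.9 ± 0.567 FPKM in Control; SD, n = 3 each; limma adjusted p = 0.0150), which was not called with library totals (0.13). The 1 COPI gene called higher as deposited is 8.33% of the 12 (all tested genes, 6.08%). With library totals 0 of the 12 were called higher and 4 lower (33.3% lower, all tested genes 29.2%). The Tmed4 call was lost without any 1 library other than Control 2, that of Tmed3 without any other than NAC 3, that of Tmed7 without any, and that of Copz2 without Control 1 or Control 3.

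Of 22 other translocation and insertion genes 1 rose and 2 fell (4.55% and 9.09%, all tested genes 6.08% and 2.72%). With library totals 0 were called higher and 10 lower (45.5% lower, all tested genes 29.2%). The NAC libraries all lay below Control on that scale for 18 of the 22 (all tested genes, 44.6%). Emc1 and Emc4 encode subunits of the ER membrane complex, an insertase. Emc1 stood at 29.9 ± 0.878 FPKM in NAC and 25.3 ± 1.08 FPKM in Control and Emc4 at 17.6 ± 0.519 FPKM in NAC and 21.2 ± 0.813 FPKM in Control (SD, n = 3 each; limma adjusted p = 0.0314 and 0.0243) as deposited. Bcap29, an ER membrane protein, fell to 12.1 ± 0.596 FPKM in NAC, against 15.1 ± 0.761 FPKM in Control (limma adjusted p = 0.0310; SD, n = 3 each). With library totals Emc1 was not called (0.067, limma adjusted p = 0.326), and Emc4 and Bcap29 stayed lower (-0.42 and -0.46). The Emc1 call was lost without any 1 library other than Control 3, and those of Emc4 and Bcap29 without any other than Control 2.

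Of 9 transcriptional regulators of secretory genes none rose and 1 fell (11.1% lower, all tested genes 2.72%). With library totals 0 were called higher and 3 lower (33.3% lower, all tested genes 29.2%). Mbtps1, the site-1 protease that activates ATF6 and its relatives, had 39.6, 40.3 and 39.4 FPKM in NAC, against 47.2, 43.6 and 45.4 FPKM in Control, without overlap (-0.19, limma adjusted p = 0.0413), a call lost without any 1 library other than Control 2. Xbp1 stood at 103 ± 3.73 FPKM in NAC and 99.2 ± 1.81 FPKM in Control (SD, n = 3 each; limma adjusted p = 0.421). RNA levels do not show the splicing or cleavage by which XBP1 and ATF6 are activated.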

How the data were processed

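The submitters isolated RNA with an RNeasy kit and built libraries with a SMARTer kit for mRNA, per the labels' protocols. The authors deposited FPKM values with rat Ensembl identifiers. The sources used here name no aligner, counter or strand setting, and a gene and its antisense partner may share reads. Mouse builds, GRCm38 and mm10, are named per the submitters' processing notes, so the build of the coordinates printed from the table is unknown. Columns headed N were taken as Control by elimination. Multiplied by gene length, every FPKM value fell on a grid of whole reads (100%, tolerance 0.01), which gave the recovered reads.

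Differences are NAC minus Control from limma 3.58.1 under R 4.3.3, with a trended prior, two-sided and without covariates. The values were log2(FPKM + 1), a scale that understates changes of low genes, and 12733 genes averaging 1 FPKM or more were tested. Benjamini-Hochberg adjustment ran over all of them with a threshold of 0.05. Figures used Python 3.11.15 and matplotlib 3.10.9. No 2 libraries of a group were alike within counting error (chi-square divided by its degrees of freedom, 3.72 to 9.73). The fit was checked on simulated data. Alternatives were other scalings, filters and pseudocounts, voom, a replicate block and leaving out each library.

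The members and lists were chosen with earlier results of these data known. All 43 members are reported, with values per library for those called on either scale, separated between groups by a log2 difference of at least 0.2 or among the 2 most abundant of their role, and of each further list up to 4 called genes or its 2 most abundant. Xbp1 was added after its values were seen. An older symbol, taken from RefSeq, was needed to match 3 of the 110 further genes.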

Additional observations from a re-analysis of the deposited data

How the results depend on the processing

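As deposited 774 genes were higher and 346 lower over all genes, 11 and 0 of the 43 and 8 and 3 of the 107. With library totals these became 467 and 3722, 4 and 14, and 3 and 32. The replicate block gave 466 and 110, 7 and 0, and 4 and 0. Among the 43, quantile normalization ended the calls of Ddost, Sec23a, Sec24d, Kdelr1 and Kdelr3, no filter those of Ddost, Sec23a, Kdelr1 and Kdelr3, and no trend those of Ssr3, Ddost, Sec23a, Sec24d, Kdelr1 and Kdelr3. The numbers do not pair the samples (correlation of deviations of same-numbered libraries -0.0502 to 0.0627), and the block ended the calls of Ssr3, Sec23a, Sec24d and Kdelr1, and of Emc1, Emc4, Bcap29, Prkcsh, Tmed3, Tmed7 and Mbtps1. Quantile normalization called 6 of the 43 higher, and 5 higher and 5 lower of the 107. Without a filter 207 genes were lower, and 7 of the 43 were higher and 1 of the 107 lower. Without a trend 206 genes were lower, and 5 of the 43 and 4 of the 107 were higher. Limma voom called 529 genes lower and 17 of the 107 higher. Leaving out 1 library gave 264 to 859 higher and 51 to 347 lower over all genes, 3 to 7 higher of the 43, and 2 to 7 higher and 0 to 3 lower of the 107.

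Of the 43 log2 fold changes 19 changed sign with library totals, none of a gene kept there as higher: Srp9 -0.068, Srp72 -0.034, Sec61a1 -0.080, Tram1 -0.15, Ssr2 -0.070, Ssr4 -0.049, Sec11a -0.17, Rpn1 -0.12, Dad1 -0.052, Stt3a -0.10, Ostc -0.081, Sec13 -0.12, Sec31a -0.16, Sec24a -0.048, Sec24d -0.020, Sar1a -0.049, Sar1b -0.16, Mia3 -0.047 and Tmed10 -0.13, and Tmed7 of the further lists -0.016. Of these Sec24d and Tmed7 had been called. Quantile normalization turned Tram1 (-0.018), Sec11a (-0.064), Rpn1 (-0.078), Sec31a (-0.027), Sar1b (-0.017) and Tmed10 (-0.11). Leaving out 1 library turned the sign of values near 0, with ranges of -0.12 to 0.028 for Srp19, -0.011 to 0.037 for Tram1, -0.058 to 0.0062 for Spcs1, -0.035 to 0.043 for Sec11a, -0.0043 to 0.096 for Sec13, -0.029 to 0.041 for Sec23b, -0.098 to 0.00058 for Sec24c, -0.00075 to 0.029 for Sar1b. The cause of these shifts was not tested. Median-of-ratios rescaling, a pseudocount of 0.1 and a mean FPKM of at least 5 left the counts of the 43 at 11 and 0. Without Rpn2, chosen after the values were seen, the read share of the OST differed by -0.00799 percentage points, NAC minus Control, against 0.00960 with it. Read shares and paralog ratios kept their sign or moved by less than their spread without any 1 library. A pseudocount of 1 changed no direction of a paralog ratio. Srp14 rests on 12 to 17 reads, too few to show a moderate change.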
